A study of Sus scrofa with 120 samples.

Results

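The members are 10 genes of the circadian clock: ARNTL, CLOCK, NR1D1, NR1D2, PER1, PER2, PER3, CRY1, TEF and DBP. They were chosen by name, with earlier results of these data known, and all 10 were found among the 31907 genes of the deposited counts. Each was followed through 30 groups of 4 RNA sequencing libraries, made from primary chondrocytes of pig femoral cartilage cast in 2% agarose. In the TRPV4 experiment, constructs were left free swelling in the vehicle DMSO or were given GSK101 (1 nM, an agonist of the calcium channel TRPV4), the cytokine IL-1 (1 ng/mL), cyclic compressive loading (10% deformation at 1 Hz for 3 h), the TRPV4 antagonist GSK205, or loading together with GSK205. In the PIEZO1 experiment, cells were not transfected (NT), or were transfected with a control siRNA (siNTC) or with siRNA against the mechanosensitive channel PIEZO1 (siPIEZO1). They then received vehicle, a single slow compression to 80% deformation, or the PIEZO1 agonist Yoda1. Harvests were 3 h and 9 h after the onset of the stimulus, so loading had ended by the later harvest. The doses of GSK205 and Yoda1 are given as 10 uM and 5 uM in the series text and in mM in the labels. The labels do not tie the libraries of a group to different animals, and the p-values therefore reflect library-to-library spread, which may be technical.

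The molecular clock is a feedback loop of transcription factors that most cells, chondrocytes included, run on their own. ARNTL (also called BMAL1) and CLOCK bind as a pair to E-box sequences and drive the PER and CRY genes, whose proteins return to the nucleus and block that pair. NR1D1 and NR1D2 (REV-ERB alpha and beta) are nuclear receptors that are driven by the same pair and repress ARNTL, and DBP and TEF are PAR bZIP factors that pass the rhythm to D-box sequences of output genes. In cartilage the clock is known to time the expression of matrix and protease genes, and inflammatory cytokines are known to disturb it.

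On Sscrofa11.1, RefSeq places the activators ARNTL at chr2:45895637-46025174 and CLOCK at chr8:54793323-54910192. The receptor genes are NR1D1 at chr12:22263549-22274131 and NR1D2 at chr13:10756954-10791219. The repressors are PER1 at chr12:53361863-53376723, PER2 at chr15:137793419-137837854, PER3 at chr6:68487634-68548718 and CRY1 at chr5:13275265-13429566. The output factors are TEF at chr5:7119354-7135171 and DBP at chr6:53986955-53993044. The gene model of NR1D1 overlaps that of THRA, CLOCK overlaps TMEM165, and CRY1 overlaps MTERF2, TMEM263 and 2 uncharacterised loci. The strand setting of the counting is not given in the sources used here, and where 2 gene models overlap, reads of one may have been counted for the other.

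Total counts were 20651530 to 80223797 in the 48 TRPV4 libraries and 36807992 to 66240251 in the 72 PIEZO1 libraries. Of the members, NR1D1 had the fewest reads in a TRPV4 library (10, in a GSK101 library at 9 h) and PER1 the fewest in a PIEZO1 library (35). The 11 chondrocyte markers summed to 67154 to 125688 CPM (counts scaled to library size by TMM) in TRPV4 libraries and to 15165 to 43658 in PIEZO1 libraries, and none of them was at 0. Of the 6 leukocyte markers LYZ was at 0 in every library and PTPRC did not pass 0.335 CPM in the TRPV4 or 0.562 CPM in the PIEZO1 experiment. CD3E did not pass 0.321 and 0.415 CPM in these experiments, and CD68 did not pass 3.88 and 4.00 CPM. CD14 stood higher, at 18.8 to 94.8 and 3.92 to 55.0 CPM, and CD79A at 0.286 to 3.85 and 17.4 to 42.6 CPM. The biological coefficient of variation was 0.107 and 0.0874 at 3 h and 9 h in the TRPV4 experiment, against 0.282 and 0.300 in the PIEZO1 experiment, which therefore resolved only larger changes. The 2 experiments used different library kits and were fitted apart, and levels were not compared between them.

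All 10 members passed the filter on low counts in every fit. Calls below are edgeR's quasi-likelihood test with a Benjamini-Hochberg adjusted p under 0.05 over all genes tested, and errors of log2 fold changes are standard errors. Percentages of all genes are of these calls. Some counts of members at an unadjusted p under 0.05 or by DESeq2 come without a like share over all genes. They do not set the members apart from other genes. Overlap of libraries is described gene by gene, and the share of all genes without overlap was not counted. GSK101 changed 7 of 10 members at 3 h (4 higher, 3 lower), where 40.0% of all genes were called, and 8 at 9 h (2 higher, 6 lower), where 62.3% were called. IL-1 changed 7 at 3 h (1 higher, 6 lower; 32.2% of all genes) and 8 at 9 h (2 higher, 6 lower; 65.1% of all genes). Loading changed 4 at 3 h (1 higher, 3 lower; 10.2% of all genes) and 5 at 9 h, all lower (23.7% of all genes). GSK205 alone changed 3 at 3 h (2 higher, 1 lower; 27.1% of all genes) and 2 at 9 h (1 higher, 1 lower; 21.2% of all genes). With GSK101 and IL-1 so many genes were called that the number of members adds little, and the size and direction for each member carry the result. The median log2 fold change of the members was 0.07 at 3 h and -0.53 at 9 h with GSK101, -0.38 and -0.34 with IL-1, and -0.05 and -0.25 with loading. Over all genes tested, these medians lay between -0.07 and 0.01. GSK101, IL-1, loading and GSK205 were all set against the same 4 DMSO libraries at each harvest.

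**Figure D1:**
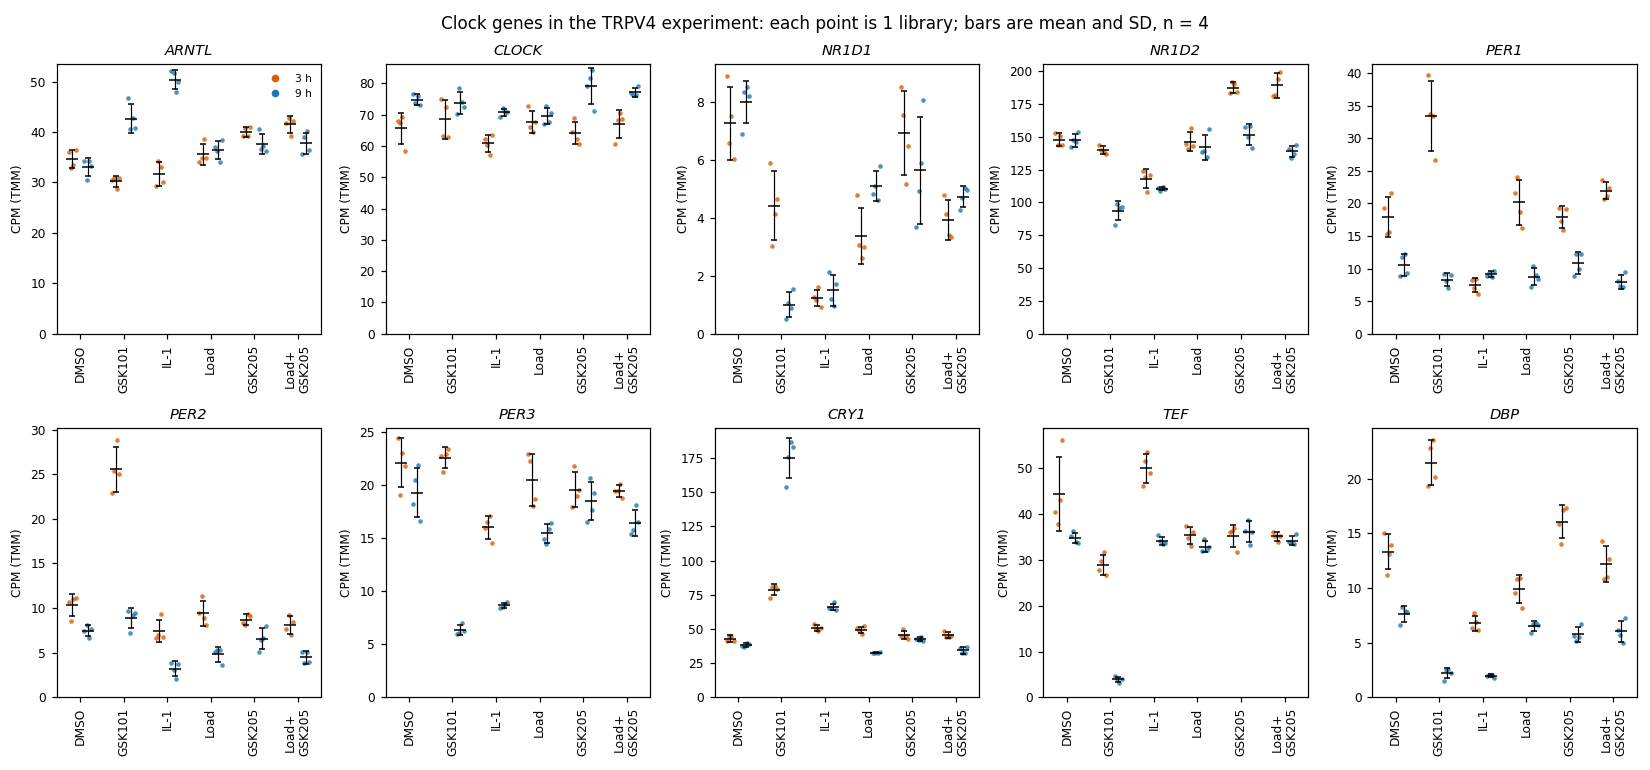
Expression of the 10 clock genes in the TRPV4 experiment, as TMM-scaled CPM on a linear axis from 0, for 6 conditions at 3 h (orange) and 9 h (blue). Each point is 1 library, and bars are the mean and SD of 4. With GSK101 at 9 h, TEF stands at 3.95 CPM and CRY1 at 175 CPM, apart from every other group.

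NR1D1 was the member that fell in each of the GSK101, IL-1 and loading comparisons. Its transcript stood at 8.91, 6.60, 7.54 and 6.05 CPM in the DMSO libraries at 3 h. IL-1 libraries at that harvest held 1.26, 1.15, 1.60 and 0.920 CPM, loaded libraries 4.81, 3.06, 2.63 and 3.00 CPM, and GSK101 libraries 5.91, 3.04, 4.14 and 4.65 CPM. Each of these groups lay wholly below DMSO. The log2 fold change was -2.51 ± 0.23 with IL-1 (adjusted p = 1.31e-10), -1.07 ± 0.20 with loading (adjusted p = 0.00051) and -0.69 ± 0.19 with GSK101 (adjusted p = 0.00499). At 9 h the DMSO libraries held 6.92, 8.38, 8.53 and 8.23 CPM and the GSK101 libraries 0.525, 1.05, 0.907 and 1.55 CPM, a log2 fold change of -2.98 ± 0.24 (adjusted p = 1.04e-12). IL-1 libraries held 2.13, 1.19, 0.960 and 1.73 CPM (-2.43 ± 0.21, adjusted p = 7.02e-12), and loaded libraries 4.84, 5.11, 4.64 and 5.81 CPM (-0.67 ± 0.19, adjusted p = 0.00794). Ordered by mean level at 9 h, DMSO was highest, GSK205, loading and loading with GSK205 lay between 4.75 and 5.66 CPM with overlapping libraries, and IL-1 and GSK101, at 1.504 ± 0.53 and 1.01 ± 0.42 CPM (SD, n = 4), were lowest and overlapped each other. In bulk RNA, fewer cells of a type and less RNA per cell cannot be told apart.

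THRA, the thyroid hormone receptor gene whose model overlaps NR1D1, moved with it in part. Its log2 fold change was -0.76 ± 0.06 with IL-1 at 3 h and -2.20 ± 0.07 at 9 h, and -1.73 ± 0.07 with GSK101 at 9 h. With GSK101 at 3 h it was -0.10 ± 0.06 (adjusted p = 0.17), and with loading -0.22 ± 0.06 at 3 h and -0.17 ± 0.06 at 9 h. As a log2 fold change, the THRA decrease was thus smaller than that of NR1D1 in each of these 6 comparisons. THRA was the more abundant, with TRPV4 group means from 17.3 CPM (IL-1, 9 h) to 81.0 CPM (GSK205, 9 h). The highest NR1D1 group mean was 8.01 CPM (DMSO, 9 h), so the log2 values do not rank the decreases in CPM. The part of shared reads in the NR1D1 values was not tested.

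NR1D2, the second REV-ERB gene, moved less. It stood at 148 ± 4.7 CPM in DMSO at 3 h and 147 ± 4.9 CPM at 9 h (SD, n = 4). IL-1 lowered it at both harvests, by log2 -0.31 ± 0.05 to 118 ± 6.9 CPM and by -0.44 ± 0.05 to 111 ± 1.2 CPM. GSK101 lowered it at 9 h, where the 4 libraries held 82.9, 98.9, 95.8 and 96.7 CPM (-0.68 ± 0.05, adjusted p = 2.48e-13), while at 3 h the value was -0.06 ± 0.05 (adjusted p = 0.37). GSK205 raised it at 3 h, to 184, 192, 190 and 184 CPM against 153, 144, 151 and 144 CPM in DMSO (0.35 ± 0.05, adjusted p = 5.02e-06). Loading left no called difference in NR1D2, with log2 values of 0.00 ± 0.05 and -0.07 ± 0.05.

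Of the PER genes, the inducible repressors of the loop, PER1 and PER2 rose with GSK101 and fell with IL-1 at 3 h. PER2 stood at 10.7, 8.53, 10.99 and 11.2 CPM in DMSO, at 22.9, 25.4, 28.9 and 25.0 CPM with GSK101, and at 6.66, 6.997, 9.29 and 6.78 CPM with IL-1. The GSK101 libraries lay wholly above DMSO, whereas 1 IL-1 library lay within the DMSO range. This gave log2 fold changes of 1.32 ± 0.11 (adjusted p = 7.46e-11) and -0.46 ± 0.12 (adjusted p = 0.00351). PER1 stood at 19.4, 15.2, 15.6 and 21.7 CPM in DMSO, at 39.7, 33.7, 33.4 and 26.6 CPM with GSK101 (0.91 ± 0.12, adjusted p = 4.44e-07) and at 8.26, 7.07, 8.38 and 6.07 CPM with IL-1 (-1.25 ± 0.13, adjusted p = 4.11e-09). PER1 libraries of the 3 groups did not overlap. PER3, the remaining PER gene, fell with IL-1 from 22.1 ± 2.3 to 16.0 ± 1.1 CPM (-0.45 ± 0.09, adjusted p = 0.000101) and was not called with GSK101 (22.5 ± 0.97 CPM, 0.05 ± 0.08).

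By 9 h the PER pattern was different. PER3 fell with GSK101 from 18.2, 20.4, 21.9 and 16.6 CPM in DMSO to 5.99, 6.09, 6.97 and 6.28 CPM (-1.63 ± 0.09, adjusted p = 2.98e-16), and stood at 8.44, 8.50, 8.81 and 8.94 CPM with IL-1 (-1.18 ± 0.09, adjusted p = 1.39e-13). PER2 was 8.88 ± 1.1 CPM with GSK101 against 7.45 ± 0.60 CPM in DMSO and was not called (0.22 ± 0.16, adjusted p = 0.22). With IL-1 it fell to 3.87, 3.11, 2.03 and 3.73 CPM (-1.24 ± 0.16, adjusted p = 5.72e-08), and with loading to 5.09, 5.31, 5.31 and 3.59 CPM (-0.64 ± 0.16, adjusted p = 0.00259), both wholly below DMSO. PER3 also fell with loading, to 14.9, 14.5, 15.9 and 16.4 CPM (-0.34 ± 0.08, adjusted p = 0.00257), again without overlap. PER1 with GSK101 was 8.30 ± 1.0 CPM against 10.5 ± 1.7 CPM (-0.37 ± 0.13, adjusted p = 0.0132), with overlapping libraries, and that call was lost without any of 3 libraries (DMSO replicate 2 or 3, or GSK101 replicate 3; adjusted p up to 0.063). PER1 with IL-1 was 9.12 ± 0.45 CPM and not called (-0.24 ± 0.13, adjusted p = 0.10), though it was called lower without DMSO replicate 1 (-0.31, adjusted p = 0.041).

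CRY1, the other repressor measured here, rose under both agents and at both harvests. It stood at 41.1, 45.0, 44.9 and 40.9 CPM in DMSO at 3 h and at 72.7, 80.6, 81.6 and 79.5 CPM with GSK101 (0.89 ± 0.06, adjusted p = 1.04e-13). At 9 h the DMSO libraries held 37.7, 36.6, 39.6 and 39.2 CPM and the GSK101 libraries 154, 176, 186 and 183 CPM, which is 4.49-fold (2.17 ± 0.06, adjusted p = 1.73e-25). The increase with IL-1 was smaller, to 50.7 ± 2.3 CPM at 3 h (0.25 ± 0.06, adjusted p = 0.00128) and to 65.7, 65.1, 69.5 and 63.9 CPM at 9 h (0.76 ± 0.06, adjusted p = 9.63e-14). With loading CRY1 was higher at 3 h (49.4 ± 2.3 CPM, 0.21 ± 0.06, adjusted p = 0.0157) and lower at 9 h (32.6 ± 0.29 CPM, -0.25 ± 0.06, adjusted p = 0.00136). The 3 h call with loading was lost without DMSO replicate 4 (adjusted p = 0.0602) or loading replicate 4 (adjusted p = 0.0542), and with the 2 groups fitted alone (adjusted p = 0.096). Of the genes overlapping CRY1, TMEM263 had log2 fold changes of 0.38 and 1.03 with GSK101 at 3 h and 9 h, and MTERF2 of 0.57 and -0.33. Their share in the CRY1 counts was not tested.

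The activators are ARNTL and CLOCK. ARNTL was 34.7 ± 1.8 CPM in DMSO at 3 h and 33.1 ± 1.8 CPM at 9 h. At 9 h it was 46.7, 40.6, 42.7 and 40.7 CPM with GSK101 (0.34 ± 0.06, adjusted p = 6.78e-06) and 52.1, 51.6, 48.01 and 49.8 CPM with IL-1 (0.58 ± 0.06, adjusted p = 1.34e-10), in both cases wholly above DMSO. At 3 h ARNTL was lower with GSK101 (30.2 ± 1.0 CPM, -0.18 ± 0.06, adjusted p = 0.0148), a call lost without DMSO replicate 4 or GSK101 replicate 3 (adjusted p up to 0.055), and with IL-1 it was not called (-0.12 ± 0.06, adjusted p = 0.14). CLOCK stayed between group means of 60.8 and 79.1 CPM over the 12 groups. Its calls with loading and with IL-1 at 9 h were log2 -0.12 ± 0.05 and -0.11 ± 0.05, and they were lost under 10 and 9 of the alternatives tried.

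TEF and DBP are the PAR bZIP output factors of the loop. TEF fell with GSK101 at both harvests and was not called with IL-1, while DBP fell with both agents at 9 h. TEF stood at 35.3, 36.3, 34.0 and 33.8 CPM in DMSO at 9 h and at 4.62, 3.96, 3.20 and 4.02 CPM with GSK101, 88.9% lower (log2 -3.17 ± 0.08, adjusted p = 2.88e-26). With IL-1 it stood at 35.5, 34.1, 33.5 and 33.8 CPM, a log2 fold change of -0.05 ± 0.06 (adjusted p = 0.45). The GSK101 libraries were thus far below all others, and IL-1 and DMSO overlapped. At 3 h TEF was already lower with GSK101 (27.8, 29.7, 31.7 and 26.6 against 40.5, 37.9, 43.1 and 56.2 CPM, -0.60 ± 0.08, adjusted p = 8.48e-07), and was 50.0 ± 3.2 CPM with IL-1 (0.18 ± 0.08, adjusted p = 0.097), though without DMSO replicate 4 the IL-1 increase of TEF was called (0.32, adjusted p = 0.00072). With the antagonist GSK205 the TEF libraries at 3 h held 31.6 to 36.9 CPM, also wholly below DMSO. DBP rose with GSK101 at 3 h, from 15.0, 11.2, 13.1 and 13.9 to 19.3, 22.8, 23.6 and 20.2 CPM (0.71 ± 0.11, adjusted p = 3.60e-06). At 9 h it fell with GSK101 from 6.60, 8.26, 7.89 and 7.77 to 1.52, 2.52, 2.58 and 2.27 CPM (-1.79 ± 0.14, adjusted p = 1.61e-12). Loading lowered DBP at 3 h, to 9.54, 10.9, 10.9 and 8.22 CPM (-0.42 ± 0.11, adjusted p = 0.0133), a call lost without loading replicate 4 (adjusted p = 0.0654). IL-1 lowered DBP at both harvests, to 6.80 ± 0.68 CPM at 3 h (-0.95 ± 0.12, adjusted p = 7.37e-08) and to 1.96 ± 0.14 CPM at 9 h (-1.99 ± 0.14, adjusted p = 3.98e-14).

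**Figure D2:**
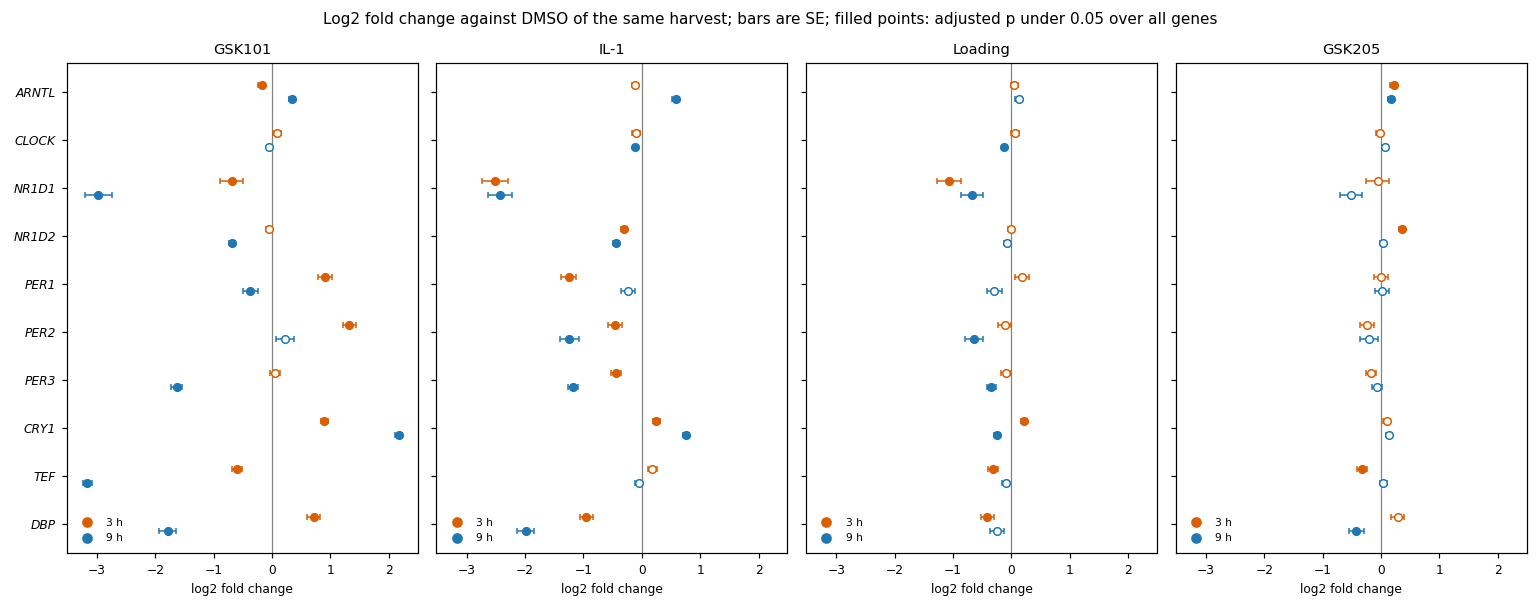
Log2 fold change of each clock gene against DMSO of the same harvest for GSK101, IL-1, loading and GSK205, at 3 h (orange) and 9 h (blue). Bars are standard errors, and filled points are called at an adjusted p under 0.05 over all genes. PER1, PER2 and DBP lie right of 0 with GSK101 at 3 h and left of 0 with IL-1, and TEF at 9 h lies at -3.17 with GSK101 and at -0.05 with IL-1.

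Other measures differed between these groups. The GSK101 libraries at 3 h were the deepest of the experiment (62677053 to 80223797 counts against 20651530 to 29904509 in DMSO), with small RNAs at 2.78 to 4.34% of counts against 6.46 to 13.2%. With protein-coding genes alone in the fit, 7 members were called there as before. The 6 leukocyte markers summed to 89.5 to 98.1 CPM with IL-1 at 9 h against 26.2 to 34.2 CPM in DMSO. CD14, the gene of a lipopolysaccharide co-receptor, made up to 94.8 CPM of this sum, whereas CD3E stayed at or below 0.321 CPM in the experiment. At 3 h the leukocyte sums were 48.4 to 56.6 CPM with IL-1 against 26.4 to 33.4 CPM. The 5 fibroblast markers summed to 1001 to 1133 CPM with IL-1 at 9 h against 438 to 473 CPM in DMSO. With GSK101 the chondrocyte markers summed to 114377 to 125688 CPM at 3 h against 89033 to 107027 CPM in DMSO, and to 69658 to 71973 CPM at 9 h against 79691 to 83754 CPM. The part of these measures in the clock values was not tested.

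GSK101 and IL-1 were compared directly in the same fits, a comparison added after the first results were known. At 3 h 9 of 10 members differed (8 higher with GSK101, 1 lower; 41.5% of all genes differed). The differences were largest for PER1 (log2 2.16 ± 0.13), NR1D1 (1.82 ± 0.22), PER2 (1.78 ± 0.12) and DBP (1.66 ± 0.11). TEF was the member that was lower with GSK101 (-0.78 ± 0.08). The call of CLOCK (0.18 ± 0.07) was lost without any of 4 libraries (GSK101 replicate 1 or 3, IL-1 replicate 2 or 3). At 9 h 6 members differed (53.8% of all genes). TEF was far lower with GSK101 (-3.12 ± 0.08), PER2 and CRY1 were higher (1.46 ± 0.16 and 1.41 ± 0.05), and PER3, ARNTL and NR1D2 were lower (-0.45 ± 0.10, -0.24 ± 0.06 and -0.24 ± 0.05). NR1D1 and DBP, which both agents lowered at 9 h, were not called different there (-0.54 ± 0.27, adjusted p = 0.084, and 0.20 ± 0.16, adjusted p = 0.30). For NR1D1 that depended on single libraries, since it was called lower with GSK101 without GSK101 replicate 4 (-0.82, adjusted p = 0.018) or IL-1 replicate 3 (-0.68, adjusted p = 0.031), and also with no filter on low counts (adjusted p = 0.045).

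The effect of GSK101 differed between the harvests for 9 of 10 members, in a test of the change in effect from 3 h to 9 h that called 45.8% of all genes. The CRY1 effect grew by log2 1.32 ± 0.08. The effects on TEF, DBP, NR1D1 and PER3 became lower by -2.52 ± 0.12, -2.45 ± 0.18, -2.24 ± 0.32 and -1.64 ± 0.12, and those on PER1 and PER2 by -1.24 ± 0.19 and -1.06 ± 0.20. CLOCK was the member not called (-0.08 ± 0.08, adjusted p = 0.44). For IL-1 6 members differed between the harvests (38.8% of all genes). The PER1 effect moved up by 1.06 ± 0.19, ARNTL and CRY1 moved up by 0.74 ± 0.08 and 0.55 ± 0.08, and DBP, PER2 and PER3 moved down by -1.004 ± 0.18, -0.74 ± 0.21 and -0.69 ± 0.12. NR1D1 with IL-1 had no called change between harvests (0.12 ± 0.33, adjusted p = 0.82). TEF was not called either (-0.20, adjusted p = 0.14), except without DMSO replicate 4 at 3 h (-0.34, adjusted p = 0.0019). For loading 1 member, CRY1, differed (-0.43 ± 0.08, adjusted p = 0.000201; 10.1% of all genes), since its difference from DMSO turned from higher to lower.

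Loading and the antagonist were crossed in the design, so that the action of GSK205 on the loading response could be tested. At 3 h loading with GSK205 differed from loading in 2 members (15.3% of all genes): NR1D2 held 181, 182, 194 and 200 CPM against 144, 141, 157 and 143 CPM (0.36 ± 0.05, adjusted p = 6.55e-06), and ARNTL 41.5 ± 1.6 against 35.5 ± 2.0 CPM (0.22 ± 0.06, adjusted p = 0.0103, and 0.0515 without loading replicate 1). GSK205 gave nearly the same values without loading, 0.35 ± 0.05 for NR1D2 and 0.21 ± 0.06 for ARNTL. DBP was not called in either comparison at 3 h. Against loading, DESeq2 (0.31, adjusted p = 0.041) and leaving out loading with GSK205 replicate 2 (adjusted p = 0.046) or loading replicate 3 (adjusted p = 0.0497) called it higher. Against DMSO, it was called higher without DMSO replicate 1 (adjusted p = 0.031) or GSK205 replicate 2 (adjusted p = 0.035). At 9 h no member differed by edgeR (4.10% of all genes), with 1 at an unadjusted p under 0.05 and 1 called by DESeq2. The interaction of loading and GSK205 was called for none of the members at 3 h (2.25% of all genes; 2 members at an unadjusted p under 0.05, 0 by DESeq2) or at 9 h (4.64% of all genes; 0 members at an unadjusted p under 0.05, 0 by DESeq2). For NR1D1, the member with the largest loading effect, the interaction was 0.24 ± 0.28 at 3 h and 0.40 ± 0.27 at 9 h. Loaded libraries without GSK205 held 3.37 ± 0.97 CPM of NR1D1 at 3 h, and those with it 3.92 ± 0.69 CPM. Without DMSO replicate 4, 2 of the 4 members called with loading at 3 h were lost (TEF, -0.18 and adjusted p = 0.124, and CRY1), and TEF was also lost without loading replicate 3 (adjusted p = 0.0534). For GSK205 at 9 h, 2 members were called, ARNTL (0.17 ± 0.06) and DBP (-0.42 ± 0.13), and both calls were lost without DMSO replicate 2. ARNTL was also lost without DMSO replicate 4 or GSK205 replicate 1 or 3, and DBP without GSK205 replicate 2. The ARNTL call was lost as well with no filter on low counts (adjusted p = 0.075), with the 2 groups fitted alone (adjusted p = 0.080) and with protein-coding genes alone (adjusted p = 0.060). NR1D1 lay close to the threshold (-0.51, adjusted p = 0.0507). It was called lower with GSK205 under 6 alternatives: no filter (adjusted p = 0.015), the 2 groups alone (adjusted p = 0.043), protein-coding genes alone (adjusted p = 0.029), the replicate block (-0.54, adjusted p = 0.029), without DMSO replicate 1 (-0.58, adjusted p = 0.048) and without GSK205 replicate 4 (-0.74, adjusted p = 0.0047).

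Further genes of the loop were taken from a list of 12, of which 11 were measured well enough to be tested at each harvest. GSK101 raised 6 and lowered 2 of them at 3 h (40.0% of all genes called) and raised 3 and lowered 6 at 9 h (62.3%), and IL-1 raised 3 and lowered 5 at 3 h (32.2%) and raised 6 and lowered 4 at 9 h (65.1%). NFIL3 encodes a repressor that competes with the PAR bZIP factors for D-boxes. It held 17.9, 17.4, 16.2 and 16.0 CPM in DMSO at 3 h and 95.9, 99.8, 109 and 96.8 CPM with GSK101 (log2 2.59 ± 0.07), and it was higher with IL-1 (1.78 ± 0.07), with GSK205 (1.34 ± 0.07) and with loading (0.93 ± 0.07). At 9 h NFIL3 was still higher with GSK101 (1.95 ± 0.06) and IL-1 (2.06 ± 0.06), and not with loading (-0.04 ± 0.06). Loading and GSK205 together gave NFIL3 less than their separate effects would sum to, with an interaction of -0.83 ± 0.09 (adjusted p = 2.0e-06) at the earlier harvest and -0.52 ± 0.09 (adjusted p = 0.00051) at the later. HLF, the other PAR bZIP factor, fell at 9 h with GSK101 from 19.2, 19.9, 19.4 and 20.0 to 4.57, 5.01, 5.25 and 4.73 CPM (-2.03 ± 0.09) and with IL-1 to 6.46 ± 0.64 CPM (-1.62 ± 0.08). At 9 h DBP and HLF were called lower with IL-1, and TEF, DBP and HLF with GSK101.

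BHLHE40 encodes a repressor that acts on E-boxes and responds to many acute stimuli. It rose with GSK101 (1.34 ± 0.07 at 3 h and 1.35 ± 0.05 at 9 h) and more with IL-1 (2.31 ± 0.07 and 2.33 ± 0.05), and with loading it rose at 3 h (0.97 ± 0.07) and was lower at 9 h (-0.14 ± 0.05). RORA, an activator of ARNTL, was higher with GSK101 at 3 h (0.71 ± 0.06) and with IL-1 at 9 h (0.56 ± 0.06). CIART, a repressor of the ARNTL and CLOCK pair, turned with IL-1 from 11.8 ± 0.74 against 25.9 ± 2.1 CPM at 3 h (-1.12 ± 0.08) to 30.1 ± 2.0 against 22.3 ± 0.60 CPM at 9 h (0.41 ± 0.08). CRY2 went with GSK101 from higher at 3 h (0.47 ± 0.08) to lower at 9 h (-0.71 ± 0.08), unlike CRY1.

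**Figure D3:**
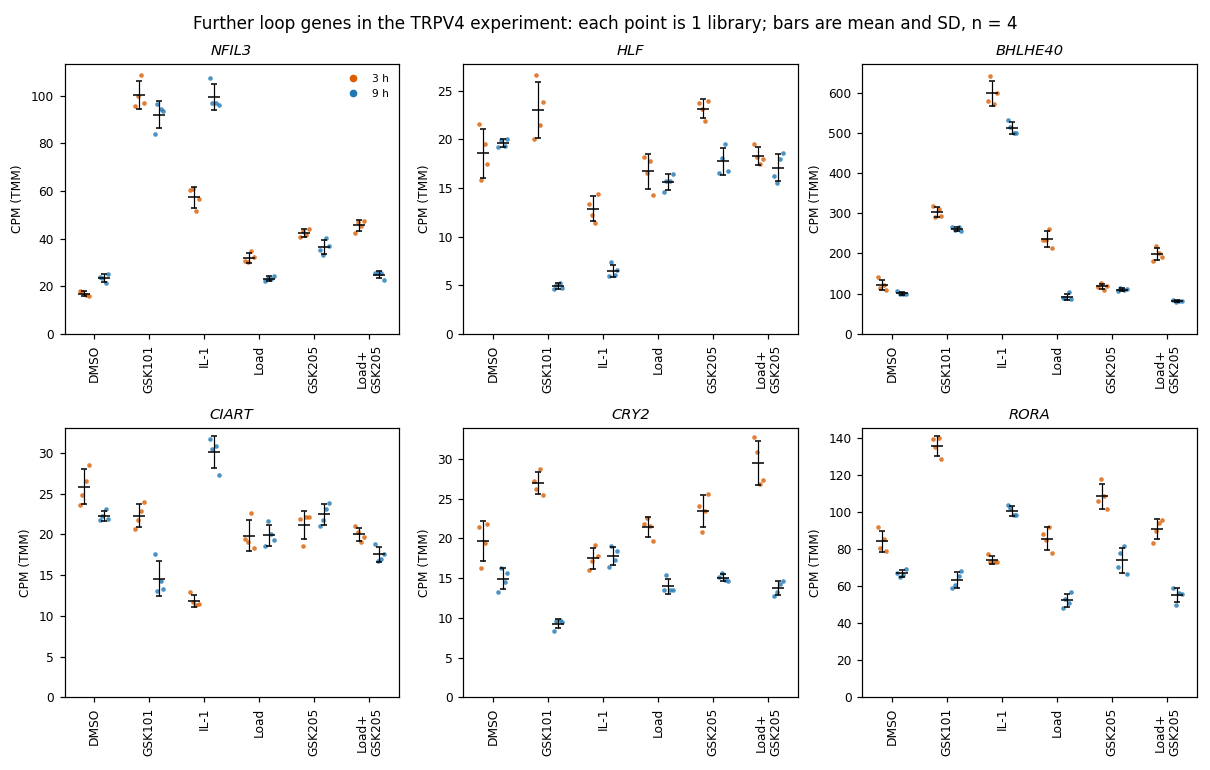
Expression of 6 further loop genes in the TRPV4 experiment, as TMM-scaled CPM from 0, at 3 h (orange) and 9 h (blue). Each point is 1 library, and bars are the mean and SD of 4. NFIL3 stands near 100 CPM with GSK101 at 3 h and with IL-1 at 9 h, and HLF is lowest with GSK101 and IL-1 at 9 h.

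Of the 8 kinases and ubiquitin ligases that set the stability of PER and CRY proteins, GSK101 raised 3 at 3 h (40.0% of all genes called) and raised 5 and lowered 2 at 9 h (62.3%). The largest changes at 9 h were CSNK1A1, a casein kinase (1.24 on the log2 scale), FBXL21, a CRY ligase subunit (-0.86), and GSK3B, a kinase (0.73). IL-1 raised 1 and lowered 2 of these 8 at 3 h (32.2% of all genes), and raised 3 and lowered 4 at 9 h (65.1%). Of the 8 output genes, 5 rose with GSK101 at 3 h (40.0% of all genes called), and 4 rose and 3 fell at 9 h (62.3%). With IL-1 5 rose and 2 fell at 3 h (32.2%), and 4 rose and 4 fell at 9 h (65.1%). NOCT, which encodes nocturnin and is rhythmic in many tissues, rose most in each case (2.40 and 2.19 with GSK101, 2.28 and 3.23 with IL-1). USP2, a deubiquitinase gene, fell with IL-1 at 3 h and 9 h (-1.58 and -1.47) and with GSK101 at 9 h (-1.51).

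As a description of pattern, log2 CPM was averaged for each of the 12 TRPV4 groups and correlated between genes. Groups share their harvest, their kit and in part their stimulus, so no p is given. Of 8171 genes, NUAK1 was the most like NR1D1 (r = 0.95), RAPH1 the most like PER2 (r = 0.94), FRMD7 the most like TEF (r = 0.95) and UTP14A the most like ARNTL (r = 0.93). Over the 18 PIEZO1 groups the same pairs had r of -0.72, 0.53, -0.53 and -0.23. LRIG2 and UVSSA followed for NR1D1, ARID1B and LGALS3BP for PER2, SCFD2 and LDLRAD3 for TEF, and PPIL3 and EIF2S2 for ARNTL, all with r of 0.90 to 0.95. Among the members, PER3 and DBP were the most alike over the 12 groups (r = 0.90, and 0.55 over the 18 groups). CRY1 and TEF were the most opposed (r = -0.84, and 0.15 over the 18 groups). PER1 and PER2 had r of 0.76 and 0.74 in the 2 experiments.

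The controls themselves changed between the harvests. In DMSO libraries, 6 of 10 members differed at 9 h from 3 h (22.2% of all genes). PER1 fell from 18.0 ± 3.1 to 10.5 ± 1.7 CPM (log2 -0.77 ± 0.13, adjusted p = 1.02e-05), DBP from 13.3 ± 1.6 to 7.63 ± 0.72 CPM (-0.80 ± 0.12, adjusted p = 3.37e-07), and PER2 from 10.3 ± 1.2 to 7.45 ± 0.60 CPM (-0.47 ± 0.14, adjusted p = 0.0105). The libraries of these 3 did not overlap between harvests, which was not counted for all genes. TEF was lower, at -0.35 ± 0.07, as was CRY1, at -0.17 ± 0.06, whose call was lost without any of 4 DMSO libraries (replicate 2 or 3 at 3 h, replicate 1 or 2 at 9 h), with no filter on low counts (adjusted p = 0.053) and with these groups fitted alone (adjusted p = 0.074). CLOCK was higher by 0.19 ± 0.06, a call lost without DMSO replicate 4 at 3 h (adjusted p up to 0.12). ARNTL (-0.07 ± 0.06), NR1D1 (0.15 ± 0.20), NR1D2 (0.00 ± 0.05) and PER3 (-0.19 ± 0.08) were not called. PER3 was called without DMSO replicate 2 at 3 h (-0.26, adjusted p = 0.028) or DMSO replicate 3 at 9 h (-0.26, adjusted p = 0.032). The harvests are 2 points in time with no record of clock phase, so a rhythm and a response to the start of the experiment cannot be told apart.

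In the PIEZO1 experiment the vehicle libraries gave a like direction for PER1 and PER2. NT vehicle libraries held 7.09, 10.1, 8.16 and 8.42 CPM of PER2 at 3 h and 4.67, 3.75, 5.31 and 4.07 CPM at 9 h (-0.92 ± 0.20, adjusted p = 0.000286), and PER1 went from 2.69 ± 0.65 to 1.42 ± 0.46 CPM (-0.91 ± 0.26, adjusted p = 0.00929). Both groups were free of overlap for each gene, and these were the 2 members called there (16.1% of all genes), though PER1 was lost without NT vehicle replicate 3 at 3 h or replicate 2 at 9 h (adjusted p up to 0.075). In siNTC vehicle libraries 1 member was called (10.7% of all genes), NR1D1 (0.52 ± 0.18, adjusted p = 0.0493, lost under 9 of the alternatives), and in siPIEZO1 vehicle libraries none by edgeR (6.99% of all genes; 1 member at an unadjusted p under 0.05, 0 by DESeq2). PER2 had -0.42 ± 0.20 and -0.12 ± 0.19 in these groups and PER1 -0.29 ± 0.26 and -0.27 ± 0.26, none called. Averaged over the 3 transfection states, a comparison added after the first results were known, 4 members differed (25.8% of all genes): PER1 and PER2 were lower (-0.49 ± 0.15 and -0.49 ± 0.11), and NR1D1 and NR1D2 were higher (0.34 ± 0.10 and 0.23 ± 0.09). The NR1D2 call (adjusted p = 0.0491) was lost when any of 17 of the 24 libraries was left out. It was also lost with RLE size factors (adjusted p = 0.056), no filter (adjusted p = 0.059) and the replicate block (adjusted p = 0.051). Lower PER1 and PER2 at 9 h were thus called in the controls of both experiments. DBP, which fell in DMSO, had -0.19 ± 0.12 over the vehicle libraries and was not called.

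**Figure D4:**
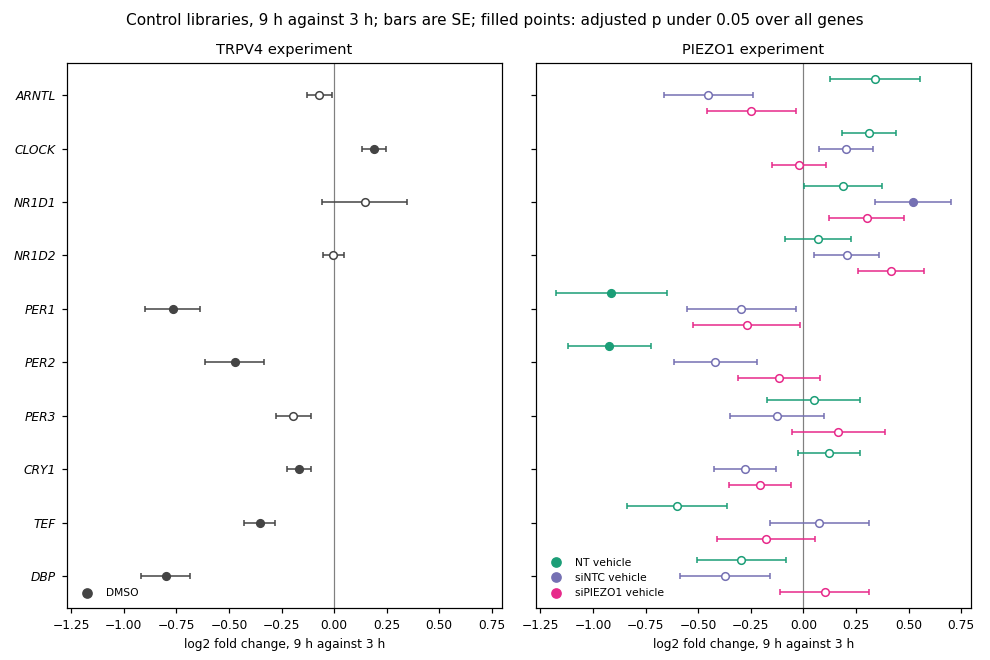
Log2 difference between 9 h and 3 h for each clock gene in control libraries, for DMSO of the TRPV4 experiment (left) and for the vehicle libraries of the 3 transfection states of the PIEZO1 experiment (right). Bars are standard errors, and filled points are called at an adjusted p under 0.05 over all genes. PER1 and PER2 lie left of 0 in all 4 controls, and are called in DMSO and in NT vehicle.

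The targeted gene checks the siRNA labels. PIEZO1 stood at 5.64 ± 1.5 CPM in siNTC and 4.72 ± 0.43 CPM in siPIEZO1 vehicle libraries at 3 h (-0.24 ± 0.19, adjusted p = 0.58), and at 5.52 ± 1.3 and 3.46 ± 1.1 CPM at 9 h (-0.66 ± 0.23, adjusted p = 0.062). The depletion was called when the 3 stimuli were averaged (-0.43 ± 0.11, adjusted p = 0.0066, for the earlier harvest and -0.60 ± 0.13, adjusted p = 0.0010, for the later), and it was partial. The chondrocyte markers summed to 15165 to 23801 CPM in siPIEZO1 libraries and to 20442 to 37584 CPM in siNTC libraries. The fibroblast markers summed to 184 to 338 CPM in siPIEZO1 vehicle libraries and to 629 to 688 CPM in siNTC vehicle libraries at 3 h, and to 421 to 525 and 975 to 1467 CPM at 9 h. NT vehicle libraries held 1195 to 1260 CPM and 1753 to 1951 CPM of them. The leukocyte markers in vehicle libraries at 9 h summed to 60.0 to 88.2 CPM with siPIEZO1 and to 37.5 to 48.5 CPM with siNTC. One library stood apart: siPIEZO1 vehicle replicate 1 at 3 h held 7.46 CPM of ARNTL against 24.5 to 30.1 CPM in its group, and 17.4 CPM of CRY1 against 34.9 to 36.05 CPM.

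Compression in the PIEZO1 experiment was tested within each transfection state, where a member that was not called may still have changed. In NT cells at 3 h, 2 were called (6.27% of all genes; 7 members at an unadjusted p under 0.05, 3 by DESeq2). That percentage is edgeR's adjusted rate, and the 7 and 3 members have no like share over all genes beside them. NR1D1 held 4.62, 3.47, 3.04 and 3.68 CPM with vehicle and 4.27, 5.82, 8.43 and 6.02 CPM with compression (0.72 ± 0.19, adjusted p = 0.0132), and PER2 7.09, 10.1, 8.16 and 8.42 against 15.2, 13.3, 14.1 and 9.86 CPM (0.63 ± 0.18, adjusted p = 0.026). Both pairs of groups overlapped by 1 library, and leaving out 1 library ended the NR1D1 call in 3 cases (compression replicate 3, or vehicle replicate 2 or 3) and the PER2 call in 5 (compression replicate 1, 2 or 3, or vehicle replicate 1 or 3). In siNTC and siPIEZO1 cells edgeR called no member (0.911% and 0.600% of all genes; 2 and 4 members at an unadjusted p under 0.05, 0 and 0 by DESeq2), with NR1D1 at 0.47 ± 0.18 and 0.49 ± 0.18. Averaged over the transfection states, 4 members were called (13.1% of all genes): NR1D1 (0.56 ± 0.11), PER2 (0.42 ± 0.10) and CRY1 (0.26 ± 0.09) were higher and DBP (-0.45 ± 0.11) was lower. The CRY1 call was lost when any of 13 of the 24 libraries was left out, with no filter (adjusted p = 0.063) and with the compared groups alone (adjusted p = 0.071). NR1D2 was not called (0.27, adjusted p = 0.068), but DESeq2 (0.27, adjusted p = 0.042), the compared groups alone (0.27, adjusted p = 0.0085) and leaving out siNTC vehicle replicate 3 (0.31, adjusted p = 0.048) called it higher. NR1D1 was thus higher after compression at 3 h, and lower after cyclic loading at 3 h in the TRPV4 experiment. The 2 experiments differ in the deformation, its course, the cells' history and the kit, and this difference was not tested.

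At 9 h the members called with compression were NR1D2, ARNTL and PER3, and the change in effect between the harvests was not tested. NR1D2 fell in NT cells from 39.8, 34.0, 36.5 and 35.6 to 23.5, 21.7, 21.7 and 24.9 CPM (-0.68 ± 0.12, adjusted p = 0.0014), the 1 member called (3.51% of all genes). In siNTC cells 3 were called (6.43% of all genes). ARNTL rose from 13.1, 16.0, 16.2 and 9.56 to 27.2, 20.5, 23.4 and 22.0 CPM (0.76 ± 0.16, adjusted p = 0.00314). PER3 rose from 2.99 ± 0.62 to 5.41 ± 0.56 CPM (0.85 ± 0.18, adjusted p = 0.00367), and neither gene's libraries overlapped. NR1D2 fell (-0.47 ± 0.12, adjusted p = 0.0162), with overlap, and that call was lost when the 2 groups were fitted alone and without compression replicate 3 or vehicle replicate 3 or 4 (adjusted p up to 0.12). PER1 was not called in siNTC cells, but DESeq2 (0.85, adjusted p = 0.017) called it higher. So did protein-coding genes alone (0.87, adjusted p = 0.044) and leaving out compression replicate 1 (1.07, adjusted p = 0.014). In siPIEZO1 cells edgeR called no member (2.18% of all genes; 0 at an unadjusted p under 0.05, 0 by DESeq2), with ARNTL at 0.14 ± 0.16 and NR1D2 at 0.05 ± 0.12. Whether siPIEZO1 altered the response to compression was tested as an interaction against siNTC, and no member was called at 3 h (0% of all genes; 0 members at an unadjusted p under 0.05, 0 by DESeq2) or 9 h (1.09% of all genes; 3 members at an unadjusted p under 0.05, 0 by DESeq2). The 9 h interaction was -0.62 ± 0.22 for ARNTL (adjusted p = 0.18), -0.66 ± 0.25 for PER3 (adjusted p = 0.22) and 0.52 ± 0.17 for NR1D2 (adjusted p = 0.135). A difference between the siRNA groups in these responses was therefore not shown in the main fit. Without siPIEZO1 vehicle replicate 1, the NR1D2 interaction at 9 h was called (0.64, adjusted p = 0.0497). Averaged over the transfection states, 2 members were called (13.6% of all genes), ARNTL (0.44 ± 0.09) and NR1D2 (-0.37 ± 0.07). PER1 was not called there, but DESeq2 (0.40, adjusted p = 0.045) and leaving out siNTC compression replicate 1 (0.48, adjusted p = 0.029) called it higher.

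**Figure D5:**
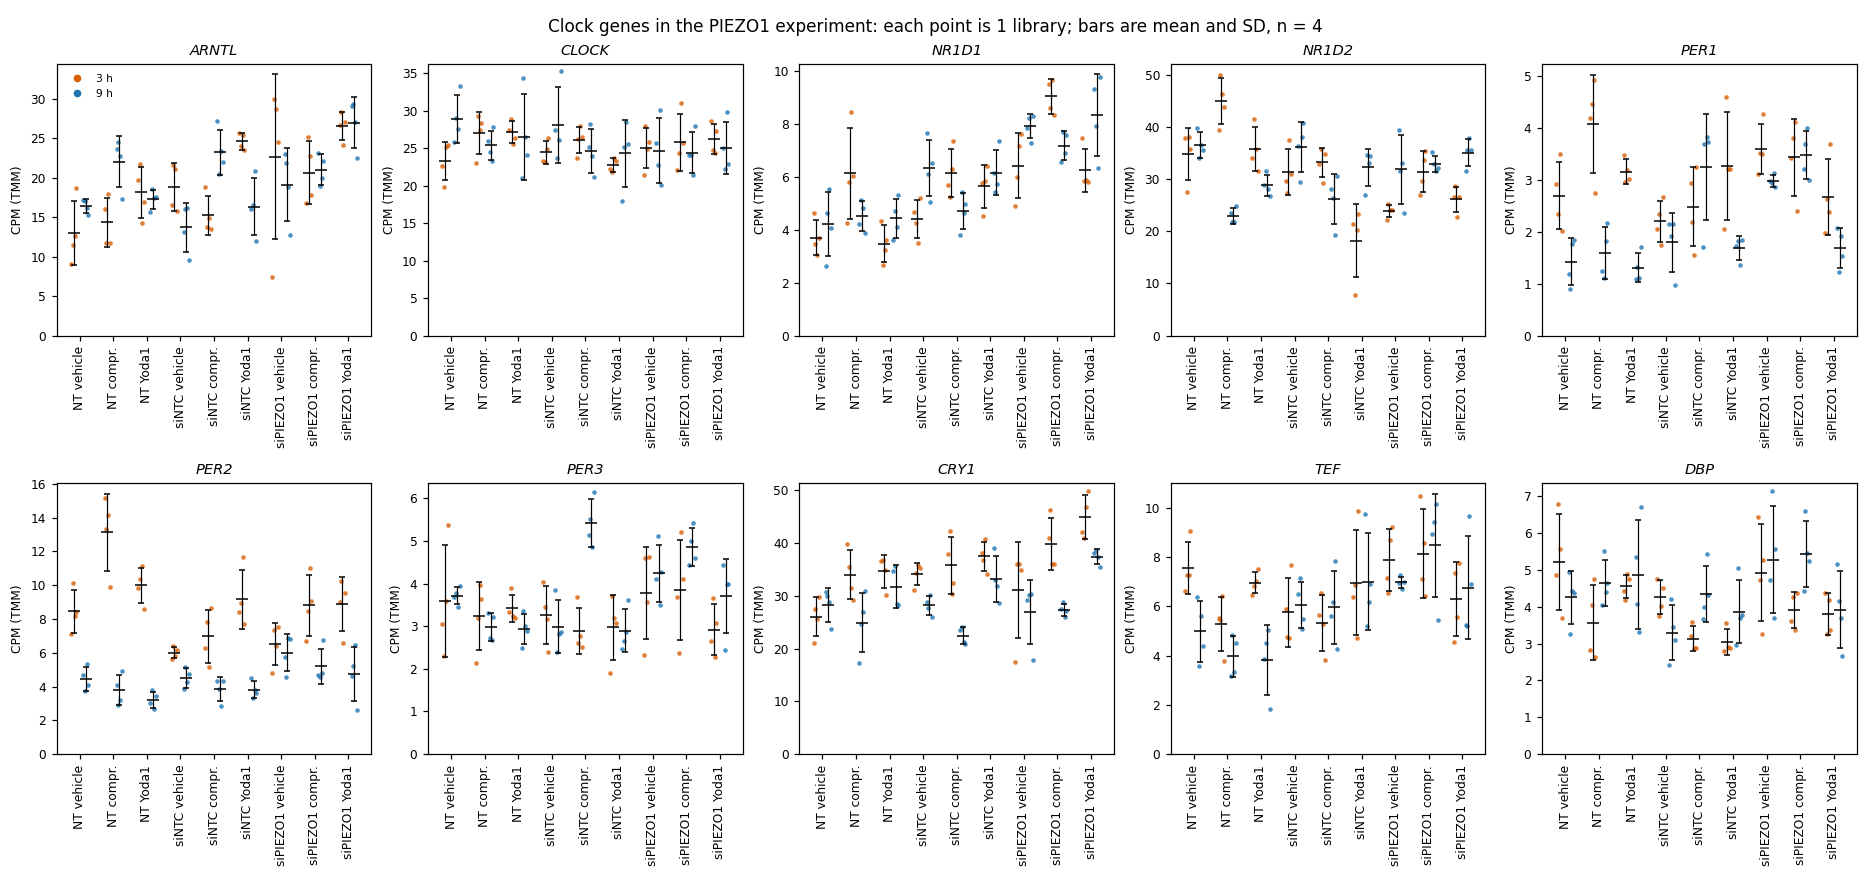
Expression of the 10 clock genes in the PIEZO1 experiment, as TMM-scaled CPM on a linear axis from 0, in 9 combinations of transfection state and stimulus at 3 h (orange) and 9 h (blue). Each point is 1 library, and bars are the mean and SD of 4. Most groups overlap, PER2 is highest in NT cells after compression at 3 h at 13.1 CPM, and the low ARNTL point of siPIEZO1 vehicle at 3 h is the library that stood apart.

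Yoda1, the agonist of PIEZO1, was tested in the same way. At 3 h in siNTC cells 2 were called (5.40% of all genes; 4 members at an unadjusted p under 0.05, 2 by DESeq2). PER2 was 5.65, 6.40, 5.82 and 6.19 CPM with vehicle and 8.41, 8.93, 11.7 and 7.68 CPM with Yoda1 (0.61 ± 0.18, adjusted p = 0.0381), and NR1D2 29.6, 27.3, 37.5 and 30.9 against 21.3, 7.84, 20.2 and 23.4 CPM (-0.79 ± 0.18, adjusted p = 0.00725). Both were free of overlap, but neither was called when the 2 groups were fitted alone, and without Yoda1 replicate 2, the low NR1D2 library, NR1D2 was at -0.54 (adjusted p = 0.0214) and PER2 was no longer called (adjusted p = 0.127). The PER2 call was lost in 6 of the 8 cases where 1 library was left out. In NT and siPIEZO1 cells at 3 h edgeR called none (0.409% and 0.262% of all genes; 2 and 2 members at an unadjusted p under 0.05, 0 and 0 by DESeq2). The interaction with siPIEZO1 called none by edgeR (0.938% of all genes; 3 members at an unadjusted p under 0.05), and DESeq2 called 1, NR1D2 (0.90, adjusted p = 0.0166; 0.92 ± 0.25 and adjusted p = 0.062 in edgeR). Averaged over the transfection states at 3 h, 3 members were called (11.2% of all genes): PER2 (0.43 ± 0.10) and CRY1 (0.36 ± 0.09) were higher and DBP (-0.36 ± 0.11) was lower. The DBP call was lost when any of 16 of the 24 libraries was left out, with no filter (adjusted p = 0.080) and with the compared groups alone (adjusted p = 0.054).

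At 9 h Yoda1 gave no call in NT or siNTC cells (0% and 0% of all genes in edgeR; 2 and 0 members at an unadjusted p under 0.05, 0 and 0 by DESeq2). In siPIEZO1 cells 1 member was called (2.54% of all genes), CRY1, at 29.2, 30.2, 30.3 and 17.9 CPM with vehicle and 38.1, 38.7, 37.4 and 35.4 CPM with Yoda1 (0.48 ± 0.13, adjusted p = 0.0476). That call was lost under 9 of the alternatives, 6 of them leaving out 1 library, with adjusted p up to 0.27. ARNTL was not called, but DESeq2 (0.49, adjusted p = 0.039) and the replicate block (0.51, adjusted p = 0.026) called it higher. Leaving out vehicle replicate 1 did so too (0.60, adjusted p = 0.045). PER1 was called lower by DESeq2 (-0.82, adjusted p = 0.038). The 9 h interaction with siPIEZO1 called none (0.0269% of all genes; 1 member at an unadjusted p under 0.05, 0 by DESeq2). Averaged over the transfection states, edgeR called none (0.210% of all genes; 4 members at an unadjusted p under 0.05), and DESeq2 called 1, CRY1 (0.29, adjusted p = 0.0309).

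The transfection itself was compared in vehicle libraries. Between siNTC and NT edgeR called no member at 3 h (7.53% of all genes; 3 members at an unadjusted p under 0.05, 0 by DESeq2) or at 9 h (5.30% of all genes; 1 at an unadjusted p under 0.05), where DESeq2 called 1, NR1D1 (0.57, adjusted p = 0.0187). Between siPIEZO1 and siNTC none was called at 3 h (5.07% of all genes; 4 members at an unadjusted p under 0.05), while DESeq2 called 2, NR1D1 and PER1. Without the siPIEZO1 library that stood apart, ARNTL (0.58, adjusted p = 0.0436) and NR1D1 (0.67, adjusted p = 0.0266) were called in edgeR. At 9 h 2 members were higher with siPIEZO1 (10.8% of all genes), ARNTL (0.48 ± 0.16, adjusted p = 0.043) and DBP (0.69 ± 0.23, adjusted p = 0.0474), both with overlapping libraries, and both calls were lost when the 2 groups were fitted alone. Leaving out 1 library ended the ARNTL call in 5 of 8 cases and the DBP call in 6 of 8. PER1 and PER3 were not called there, but DESeq2 called both higher (0.74, adjusted p = 0.035, and 0.51, adjusted p = 0.022). PER3 was also called higher without siNTC replicate 1 (adjusted p = 0.027) or siPIEZO1 replicate 3 (adjusted p = 0.045). Averaged over the 3 stimuli, a comparison added after the first results were known, NR1D1 was higher with siPIEZO1 at 3 h (0.43 ± 0.11, adjusted p = 0.0038), the 1 member called (15.1% of all genes). Without the siPIEZO1 library that stood apart, ARNTL was also called higher (0.38, adjusted p = 0.0048). TEF and DBP were called higher there when certain other single libraries were left out. At 9 h 3 were higher (19.7% of all genes), NR1D1 (0.46 ± 0.10, adjusted p = 0.00103), ARNTL (0.36 ± 0.09) and PER2 (0.39 ± 0.12), the last of which was lost without Yoda1 replicate 3 or compression replicate 4 of siPIEZO1 (adjusted p up to 0.056). DBP was not called there, but DESeq2 (0.34, adjusted p = 0.041) and several fits without 1 library called it higher. PER3 was called higher without siNTC vehicle replicate 1 (adjusted p = 0.049) or siPIEZO1 Yoda1 replicate 2 (adjusted p = 0.036). The siPIEZO1 libraries also had the lower chondrocyte and fibroblast marker sums and, at 9 h in vehicle, the higher leukocyte marker sums given above, and their part in these values was not tested.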

How the data were processed

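RNA was sequenced from pig chondrocytes in agarose, in 120 libraries of 30 groups, with 4 libraries per group. Sample titles gave each library's group, harvest and replicate number. The authors deposited 1 table of gene counts, as whole numbers without normalisation. Trim Galore, STAR, HTSeq and the build Sscrofa11.1 are named in the submitters' processing notes, without versions or the strand setting. Per the labels' protocols, TRPV4 libraries were made after removal of ribosomal RNA with random hexamers, and PIEZO1 libraries with a low-input kit. The labels name polyA RNA for all samples, and titles speak of transduction where the protocol describes siRNA transfection.

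Of 32388 lines, 481 repeats were removed, leaving 31907 genes. Of the members, 8 were matched by the table's symbol (ARNTL being the older symbol of BMAL1), NR1D2 by a gene name table and PER3 through its RefSeq identifier. The experiments were fitted apart with edgeR 4.0.16 (R 4.3.3, TMM, filterByExpr with a minimum count of 10, quasi-likelihood test), on all libraries of 1 harvest, or of both harvests for differences between them. Between 16540 and 20202 genes were tested, and calls are at an adjusted p under 0.05. CPM values use TMM-scaled library sizes over both harvests. Alternatives were RLE size factors, DESeq2 1.42.0, no filter, protein-coding genes alone, the compared groups alone, a replicate block, and leaving out each library. The fits were tested on simulated counts.

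The members, the other gene lists and the tests were chosen with earlier results of these data known. The text names all members. Of 3 further lists it gives counts and names at most 3 genes each with the largest change, besides NFIL3, BHLHE40, CIART, CRY2, HLF and RORA, and it names the 3 genes most like NR1D1, PER2, TEF and ARNTL among those at 10 CPM or more. No sequence of the genes was used here. The values of 1 further gene of these lists are not reported here.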

Additional observations from a re-analysis of the deposited data

Results flagged for a closer look

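The effects of GSK101 and of IL-1 on 9 and 6 members and that of loading on 1 member differed between 3 h and 9 h in edgeR's test of the difference itself. For GSK101 the log2 differences were 0.57 (ARNTL), -2.24 (NR1D1), -0.57 (NR1D2), -1.24 (PER1), -1.06 (PER2), -1.64 (PER3), 1.32 (CRY1), -2.52 (TEF) and -2.45 (DBP). For IL-1 they were 0.74 (ARNTL), 1.06 (PER1), -0.74 (PER2), -0.69 (PER3), 0.55 (CRY1) and -1.004 (DBP). For loading the difference was -0.43 (CRY1). Each of these 16 calls held under every alternative run for it.

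In 9 of 300 combinations of member and group, 1 library lay far from the other 3 (Dixon's ratio above 0.829), where chance alone gives about 1 in 20. In the TRPV4 experiment these were PER2 with IL-1 at 3 h (replicate 3, 9.29 CPM, group from 6.66), PER2 with loading at 9 h (replicate 4, 3.59 CPM, group up to 5.31) and TEF with GSK205 at 3 h (replicate 4, 31.6 CPM, group up to 36.9). In the PIEZO1 experiment they were CRY1 in siPIEZO1 vehicle at 3 h (replicate 1, 17.4 CPM, group up to 36.05) and at 9 h (replicate 4, 17.9 CPM, group up to 30.3), and NR1D1 in siPIEZO1 with Yoda1 at 3 h (replicate 1, 7.46 CPM, group from 5.81). PER1 in siNTC compression at 9 h (replicate 1, 1.71 CPM, group up to 3.83), PER2 in siPIEZO1 compression at 9 h (replicate 4, 6.75 CPM, group from 4.58) and DBP in siNTC with Yoda1 at 3 h (replicate 2, 3.56 CPM, group from 2.80) were the others.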

How the results depend on the processing

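No called log2 fold change of a member changed sign under an alternative. In the TRPV4 experiment the number of members called moved by over 1.5 times in 1 comparison, apart from leaving out a library: loading with GSK205 against loading at 9 h went from 0 to 1 with DESeq2 and with the compared groups alone. In the PIEZO1 experiment, counts moved from 2 to 1 (no filter) and 0 (compared groups alone) for Yoda1 in siNTC at 3 h, and from 0 to 1 (compared groups alone) for siNTC against NT at 3 h. DESeq2 gave 2 for siPIEZO1 against siNTC in vehicle at 3 h and 4 at 9 h (from 0 and 2), 1 for siNTC against NT at 9 h, 1 for the interaction of siPIEZO1 and Yoda1 at 3 h, and 1 for Yoda1 over the transfection states at 9 h (each from 0). For Yoda1 in siPIEZO1 at 9 h, 1 member became 3 with DESeq2, 2 with the replicate block, and 0 with RLE size factors, no filter or the compared groups alone. The 2 members of siPIEZO1 against siNTC at 9 h became 0 with no filter or the compared groups alone, and the 1 of siNTC vehicle between harvests became 0 with these 2 and with RLE. Leaving out 1 library moved these counts of members: loading at 3 h 2 to 4, loading with GSK205 against loading at 3 h 1 to 3, GSK205 at 9 h 0 to 3, the loading effect between harvests 1 to 2, compression in NT at 3 h 0 to 3, Yoda1 in siNTC at 3 h 1 to 2, siPIEZO1 against siNTC at 3 h 0 to 2 and at 9 h 0 to 2, over the stimuli at 3 h 1 to 2, the interactions of siPIEZO1 with Yoda1 at 3 h 0 to 1 and with compression at 9 h 0 to 1, Yoda1 in siPIEZO1 at 9 h 0 to 2, siNTC against NT at 9 h 0 to 1, and between harvests 1 to 3 in NT, 0 to 1 in siNTC and 0 to 1 in siPIEZO1 vehicle.

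Counts over all genes moved by over 1.5 times as follows. With the compared groups alone, loading at 3 h went from 1683 to 1021, and at 3 h in the PIEZO1 experiment compression in siNTC from 167 to 309 and in siPIEZO1 from 110 to 2, Yoda1 in NT from 75 to 210, in siNTC from 989 to 21, in siPIEZO1 from 48 to 7 and over the states from 2056 to 1133, siPIEZO1 against siNTC from 929 to 244 and the interaction with Yoda1 from 172 to 3. At 9 h compression in NT went from 653 to 419 and in siNTC from 1196 to 589, Yoda1 in siPIEZO1 from 472 to 2, siPIEZO1 against siNTC from 2017 to 1313, the interactions with compression from 202 to 44 and with Yoda1 from 5 to 0, and siPIEZO1 vehicle between harvests from 1412 to 363. DESeq2 called more: 685 for 372 and 1181 for 678 (interaction of loading and GSK205 at 3 h, loading with GSK205 against loading at 9 h), 398 for 167 and 304 for 110 (compression in siNTC and siPIEZO1 at 3 h), 230, 1629 and 157 (Yoda1 in NT, siNTC and siPIEZO1 at 3 h), 1410 (siPIEZO1 against siNTC at 3 h), 519 (interaction with Yoda1 at 3 h), and at 9 h 1216, 1929 and 718 for 405 (compression in NT, siNTC and siPIEZO1), 17 for 0, 2 for 0 and 892 for 472 (Yoda1 in these), 510 and 111 (interactions with compression and Yoda1) and 227 for 39 (Yoda1 over the states). The replicate block gave 230 for 372 (interaction of loading and GSK205 at 3 h) and 3 (Yoda1 in NT at 9 h), besides the counts below. Protein-coding genes alone gave 1 (Yoda1 in NT) and 2, and no filter 16 (interaction with Yoda1 at 9 h). The cause was not tested.

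Leaving out 1 library moved counts over all genes by over 1.5 times in 27 comparisons, at most to these values (in brackets the library and replicate). In the TRPV4 experiment at 3 h 1057 (loading 3) were called for loading, 1596 (loading 1) for loading with GSK205 against loading, and 135 (loading with GSK205 1) or 671 (DMSO 1) for the interaction. At 9 h the last 2 gave 295 (loading with GSK205 1) and 505 (DMSO 2), and the loading effect between harvests 1129 (loading 1 at 3 h). At 3 h in the PIEZO1 experiment compression gave 526 (vehicle 2) in NT, 62 (vehicle 2) in siNTC and 25 (compression 3) in siPIEZO1. Yoda1 gave 13 (vehicle 1) or 394 (vehicle 4) in NT, 229 (Yoda1 2) in siNTC, 14 (Yoda1 4) or 89 (vehicle 3) in siPIEZO1 and 1205 (NT vehicle 1) over the states. siNTC against NT gave 918 (NT 1), siPIEZO1 against siNTC 590 (siNTC 1), the interaction with compression 1 (siNTC compression 1) and that with Yoda1 37 (siPIEZO1 Yoda1 4) or 297 (siNTC Yoda1 4). At 9 h compression gave 180 (compression 2) in NT, 374 (compression 3) in siNTC and 194 (vehicle 4) in siPIEZO1, and Yoda1 2 (Yoda1 2) in NT, 43 (vehicle 4) in siPIEZO1 and 5 (NT vehicle 4) over the states. siNTC against NT gave 543 (siNTC 1), siPIEZO1 against siNTC 1261 (siNTC 4), the interaction with compression 60 (siNTC vehicle 3) or 357 (siNTC compression 1) and that with Yoda1 0 (siNTC Yoda1 4) or 29 (siPIEZO1 vehicle 1).

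Between libraries with the same replicate number, the median correlation of deviations was 0.00 to 0.01 in the 4 fits of 1 harvest (lowest -0.13). The numbers were not taken as pairs. As a hint from the data, not the design, a library correlated best with its own number in 6 and 8 of 24 cases (TRPV4 experiment, 3 h and 9 h) and in 9 and 17 of 36 (PIEZO1 experiment). With 4 numbers, chance alone gives about 1 in 4. The count of 17 lies above that, so shared deviation in the PIEZO1 experiment at 9 h may have been missed. At that last harvest the block moved compression in NT from 653 to 1043 genes, the interaction with Yoda1 from 5 to 88 and Yoda1 over the states from 39 to 136. The replicate block kept the members called at 7 and 8 (3 h and 9 h) for both GSK101 and IL-1, and gave 1 in place of 0 for siNTC against NT at 9 h.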
